A study of Mus musculus with 9 samples.

Results

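Serum carrier genes of the endoderm are described here by 10 genes: Afp, Alb, Gc, Ttr, Rbp4, Trf, Ahsg, Spp2, Serpina1c and Spink1. They were chosen by name, and each was read from the probe set that names that gene alone. The array table paired 9 of the 10 with such a probe set, of 19933 genes that had one, and each of the 9 had a single probe set. For Gc, no probe set was paired with this gene alone, and it is not analysed here. Of the 9, 7 lay above the filter on dim genes, which kept 13207 genes for testing, while Alb and Ahsg lay below it on all 9 arrays. The filter asked for a signal above the 40th percentile of the gene's own array on at least 3 arrays.

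The study asked what loss of Rnh1, which encodes the cytoplasmic inhibitor of secreted ribonucleases, changes in the yolk sac. Mouse yolk sacs collected at embryonic day 9.5 came from 3 genotypes on a mixed SV 129/C57BL/6 strain background: WT (Rnh1 +/+), HET (Rnh1 +/-) and KO (Rnh1 -/-), with 3 arrays each and no treatment in any group. The labels state that maternal tissue was kept out. How the Rnh1 allele was made, and whether a sample was 1 sac or a pool, was not stated in the labels, so p-values measure only the spread between these samples, which may be technical. Values are log2 signals from Affymetrix whole-transcript gene arrays, on which a difference of 1 is a 2-fold change, and the number of arrays limits their precision.

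Before the liver takes over, the visceral endoderm of the yolk sac is the main site where the embryo's plasma proteins are made. It secretes them towards the vessels of the yolk sac, while its apical surface takes up maternal proteins through the cubilin and megalin receptors. Afp and Alb encode alpha-fetoprotein and albumin, relatives in 1 gene family that also holds Gc, the vitamin D carrier. Ttr and Rbp4 encode transthyretin and retinol-binding protein, which travel together in blood with thyroid hormone and vitamin A. Trf encodes transferrin, the iron carrier, Ahsg encodes fetuin-A, which binds calcium phosphate, and Spp2 encodes a secreted phosphoprotein related to it. Serpina1c, a copy of the alpha-1-antitrypsin gene, and Spink1, a trypsin inhibitor, encode protease inhibitors rather than carriers.

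The promoters of 7 of the 10 genes (Afp, Alb, Gc, Rbp4, Ahsg, Spp2 and Serpina1c) were read from RefSeq windows on GRCm38.p6, and the 250 bases before the start were searched on both strands. The 6 letters GTTAAT, which open the site bound by the HNF1 factors of liver and visceral endoderm, occurred in 4 of them, Afp, Alb, Gc and Serpina1c, and in 6.43% of all 32851 windows. Those of Afp, Alb and Serpina1c are shown because they pair an endoderm gene near the top of the signal range (Afp) with a dim relative (Alb) and with a gene that fell in KO (Serpina1c). Each is the 120 bases before the start, 5′ to 3′, with GTTAAT in capitals.
Afp, chr5:90490594-90490713, plus strand: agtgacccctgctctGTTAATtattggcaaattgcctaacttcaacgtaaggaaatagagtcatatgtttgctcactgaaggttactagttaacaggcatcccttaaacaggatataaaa
Alb, chr5:90460750-90460869, plus strand: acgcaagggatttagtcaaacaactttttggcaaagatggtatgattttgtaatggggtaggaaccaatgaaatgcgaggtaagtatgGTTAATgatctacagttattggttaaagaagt
Serpina1c, chr12:103904951-103905070, minus strand: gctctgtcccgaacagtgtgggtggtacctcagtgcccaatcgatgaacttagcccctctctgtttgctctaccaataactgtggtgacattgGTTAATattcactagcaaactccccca
The capitals begin 105 bases before the start of Afp, 32 before that of Alb and 27 before that of Serpina1c. CAAAGTCCA, an HNF4-type motif found in 0.384% of all windows, occurred in none of the 7 genes. TTGCNNAA, a C/EBP-type motif present in 9.56% of all windows, occurred in Afp, Alb, Ahsg and Rbp4. Among the remaining motifs searched, TATAAA (12.4% of all windows) was in Afp and Rbp4, and TGTTTAC (3.17%) in Rbp4. TATTTAC (2.73%) and AGATAA (9.99%) were in Spp2, and CAAAG (48.6%) was in all 7. The letters TGTTTAC and TATTTAC are forms of the site of FOX factors, AGATAA of that of GATA factors and CAAAG of part of that of HNF4. These matches describe the letters in these windows and no binding.

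The genotype labels were checked on Rnh1 itself. Its log2 signal was 10.39, 10.42 and 10.32 in WT, 9.75, 9.75 and 9.77 in HET, against 6.28, 6.78 and 6.87 in KO. KO lay 3.73 below WT on the log2 scale (a difference of -3.73, limma adjusted p = 4.61e-06), with 1 of the 3 KO arrays under its 40th percentile. HET lay between the other genotypes without overlap, and its difference from WT of -0.62 did not pass (limma adjusted p = 0.939). Markers of the visceral endoderm were measured on all arrays: the 27 of 29 listed markers with a probe set all lay above the filter, among them Amn, Cubn, Lrp2, Apob and Dab2. Array medians lay between 7.07 and 7.20 and array maxima between 13.76 and 13.90. WT arrays 1 and 3 stood apart by 12 markers of the parietal endoderm, the outer yolk sac layer that lays down Reichert's membrane, whose mean was 10.33 and 10.75 there against 9.39 to 9.63 on the other 7 arrays. Results against WT are therefore set beside those against HET, where these markers were alike (9.39 to 9.45 in HET, 9.41 to 9.63 in KO). Decidua markers were not alike there: the 8 tested averaged 7.75 to 8.35 in HET and 8.66 to 8.88 in KO.

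Against WT, 4 of the 7 tested genes were lower in KO (Afp, Trf, Spp2 and Serpina1c), none was higher, and 3 did not pass (Ttr, Rbp4 and Spink1). Over all 13207 genes tested, 15.2% were lower and 8.27% higher by the same rule, limma with Benjamini-Hochberg adjusted p under 0.05, which is 23.5% in either direction. The median log2 difference was -0.33 over the 7 and -0.00 over all genes tested. Serpina1c was above the filter only through its 6 WT and HET arrays, so this count describes the 7 and supports no claim about such genes as a group. In 6 of the 7, all but Spink1, each KO array lay below each WT array, as in 24.7% of all genes tested. The direction of calls over all genes depended on the centring of the arrays, while their number hardly did (3101 as deposited, 3106 with each array centred on its median). Lower in KO were 64.8% of calls as deposited and 81.4% with centring, and the same 4 genes passed in both.

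**Figure D1:**
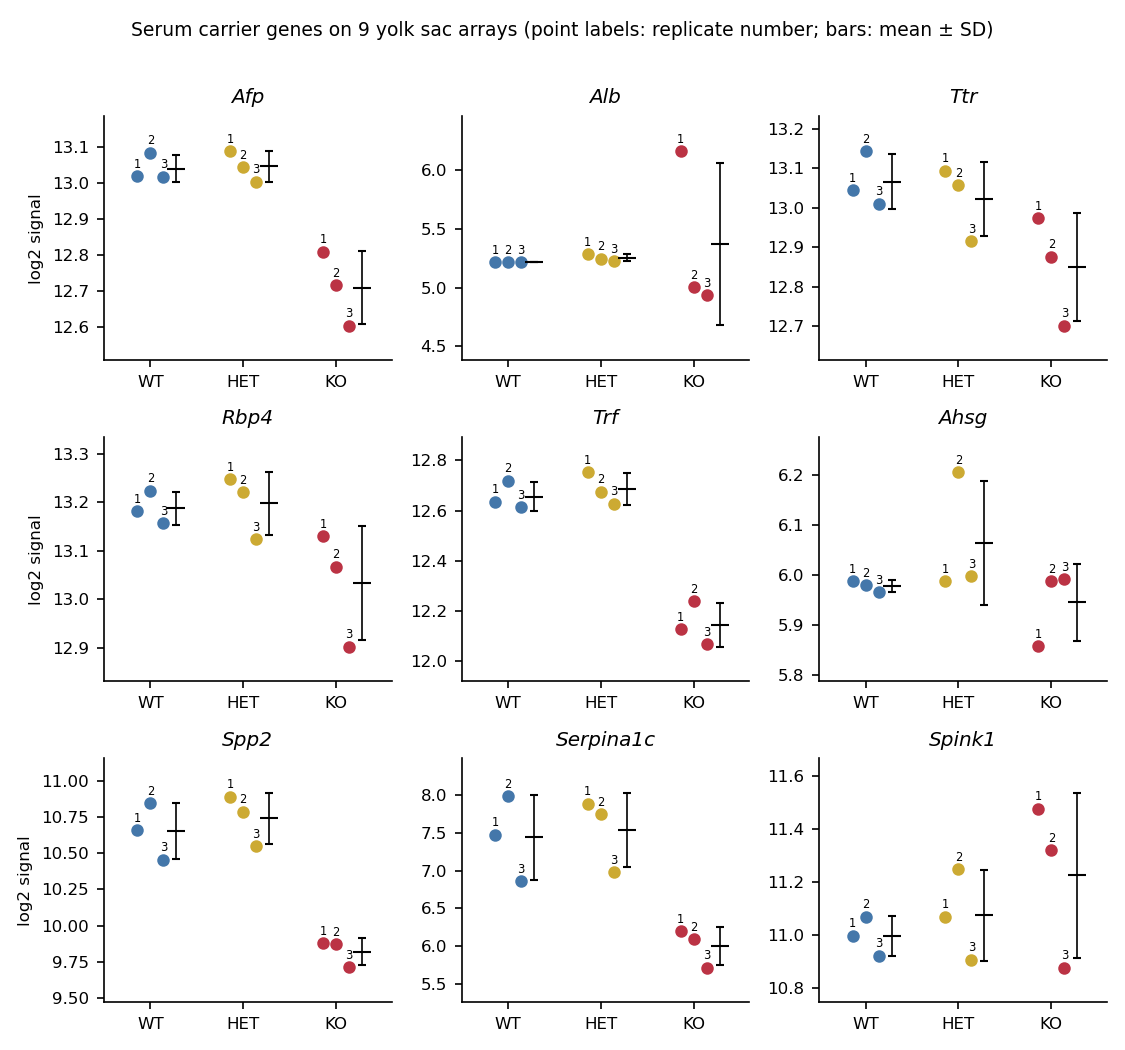
Log2 signal (vertical axis, scaled separately in each panel) of the 9 measured genes by genotype (horizontal axis), with 1 point per array labelled by its replicate number and a bar for mean ± SD over 3 arrays. KO points lie below all WT points for Afp, Ttr, Rbp4, Trf, Spp2 and Serpina1c, while Alb and Ahsg are dim throughout.

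Afp, the most abundant serum protein of the mouse fetus, read 13.02, 13.08 and 13.02 in WT, 13.09, 13.04 and 13.00 in HET, against 12.81, 12.72 and 12.60 in KO. All KO arrays were below all others, and WT and HET overlapped. Its mean of 12.71 ± 0.10 (SD, n = 3) in KO against 13.04 ± 0.04 in WT gave a log2 difference of -0.33 (SE 0.06, 95% interval -0.48 to -0.18, limma adjusted p = 0.00814), so that KO held 79.6% of the WT signal. The call did not hold without WT 1 and WT 3 together (-0.37, limma adjusted p = 0.0662), a test that leaves 1 WT array and assumes that it varies like the other groups. It held in each of the other 21 alternatives, and against HET in all 22.

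Trf, whose product delivers iron to the erythroid cells that fill the yolk sac vessels, read 12.63, 12.72 and 12.61 in WT, 12.75, 12.68 and 12.63 in HET, against 12.13, 12.24 and 12.07 in KO. The gap between KO and the other arrays was wider than the range within any genotype. KO lay at a log2 difference of -0.51 from WT (SE 0.07, 95% interval -0.66 to -0.36, limma adjusted p = 0.00186) and held 70.1% of the WT signal. This call held in all 22 alternatives.

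Spp2 read 10.66, 10.85 and 10.46 in WT, 10.89, 10.79 and 10.55 in HET, against 9.88, 9.87 and 9.71 in KO. Again no KO array reached any array of WT or HET. The log2 difference from WT was -0.84 (SE 0.12, 95% interval -1.10 to -0.57, limma adjusted p = 0.00235), or 56.0% of the WT signal, and it passed in all 22 alternatives.

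Among the 7 tested genes, Serpina1c had the widest spread within WT and within HET, with 7.47, 7.99 and 6.86 in WT, 7.88, 7.75 and 6.98 in HET, against 6.20, 6.09 and 5.72 in KO. All KO arrays lay under the 40th percentile of their array, so the fitted difference from WT of -1.44 (SE 0.31, limma adjusted p = 0.0112) carries no exact fold. With each KO value set to that percentile, mean KO was 1.89-fold lower than mean WT and 2.02-fold lower than mean HET. These folds take no account of the spread between arrays. The limma 95% interval of the fitted fold reached down to 1.68 against WT and 1.80 against HET. The values 1.89 and 2.02 are therefore not lower limits. The SD over the 3 arrays was 0.56 in WT and 0.49 in HET, against 0.25 in KO.

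The mouse carries near-identical copies of the alpha-1-antitrypsin gene, so signal for 1 copy may come from another, and the value of Serpina1c alone is uncertain. A pair of probe sets names Serpina1a, Serpina1b, Serpina1c, Serpina1d and Serpina1e together, and both were lower in KO, in a limma fit over 15314 probe sets naming 1 or several genes. The first read 9.48, 9.73 and 9.29 in WT, 9.77, 9.58 and 9.39 in HET, against 8.76, 8.69 and 8.45 in KO, a difference from WT of -0.87 (SE 0.14, limma adjusted p = 0.00417). In the second, values were 11.54, 11.69 and 11.35 in WT, 11.79, 11.56 and 11.45 in HET, against 10.71, 11.04 and 10.65 in KO, a difference of -0.73 (SE 0.13, limma adjusted p = 0.00699). Neither overlapped between KO and the other genotypes. The probe set of Serpina1d alone was dim, above the filter percentile on 2 of 9 arrays, with 6.08 to 6.73 in WT, 5.82 to 6.62 in HET and 5.43 to 5.51 in KO.

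**Figure D2:**
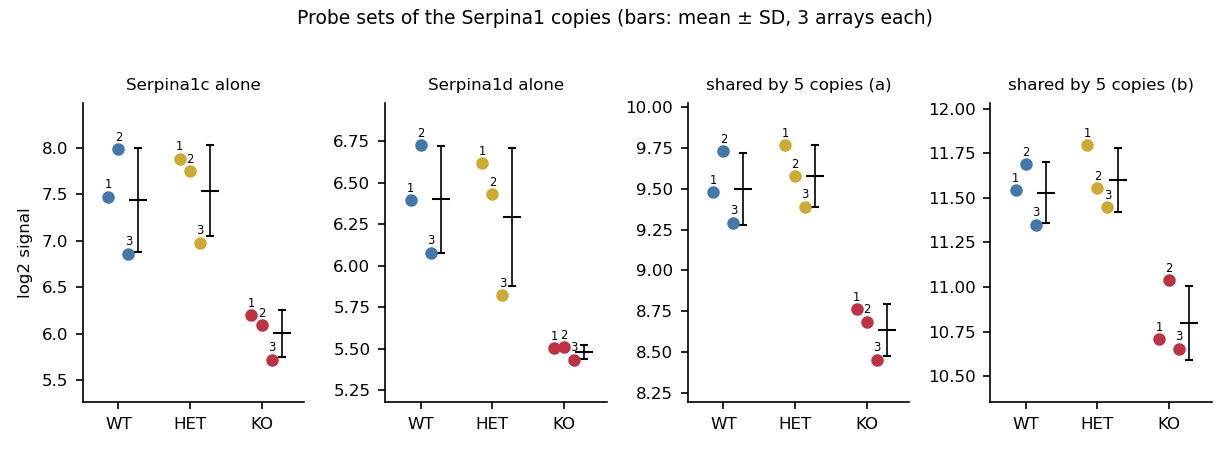
Log2 signal (vertical axis, scaled separately in each panel) of 4 probe sets of the Serpina1 copies by genotype (horizontal axis), with 1 point per array labelled by replicate number and a bar for mean ± SD over 3 arrays. KO lies below WT and HET in each panel, including the pair that names 5 copies together, where the differences from WT were -0.87 (a) and -0.73 (b).

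Ttr and Rbp4, the thyroxine and retinol carriers, differed between KO and WT by amounts that did not pass. Ttr read 13.04, 13.14 and 13.01 in WT, 13.09, 13.06 and 12.92 in HET, against 12.97, 12.88 and 12.70 in KO, a difference from WT of -0.22 (SE 0.08, 95% interval -0.41 to -0.03, limma adjusted p = 0.0905). For Rbp4, the values were 13.18, 13.22 and 13.16 in WT, 13.25, 13.22 and 13.12 in HET, against 13.13, 13.07 and 12.90 in KO, with a difference of -0.15 (SE 0.07, 95% interval -0.31 to 0.01, limma adjusted p = 0.142). In both genes KO was below every WT array and overlapped HET. Ttr passed without KO 1 (-0.28, limma adjusted p = 0.0379), with a trended robust prior (limma adjusted p = 0.0448) and with array weights, and Rbp4 with array weights alone. The intervals leave room for a fall in Rbp4 of up to 0.31 or none.

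Spink1 read 11.00, 11.07 and 10.92 in WT, 11.07, 11.25 and 10.91 in HET, against 11.48, 11.32 and 10.88 in KO. A pair of KO arrays was above every other array and the remaining one below all, so the groups overlapped. The difference from WT of 0.23 (SE 0.15, 95% interval -0.10 to 0.56) did not pass (limma adjusted p = 0.281). Without KO 3 the difference was 0.40 (limma adjusted p = 0.0342), the 1 of 22 alternatives in which Spink1 passed against WT. Against HET it passed in 0 of 22.

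Albumin and fetuin-A transcripts were not measured above the filter. Alb read 5.21, 5.22 and 5.22 in WT, 5.29, 5.25 and 5.23 in HET, against 6.16, 5.01 and 4.93 in KO, and Ahsg lay between 5.86 and 6.21 on all 9 arrays. KO 1 stood apart for Alb but remained under the filter percentile, so no fold is given for either gene. In RefSeq's gene order on GRCm38.p6, Alb, Afp and Afm, the afamin gene, are consecutive protein-coding genes. Afm was chosen for that position and was dim on all 9 arrays, at 4.80 to 5.34, so of this run of genes Afp alone lay above the filter.

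KO and HET were compared next, a comparison that shares the KO arrays with the one against WT. Here 4 of 7 were lower, none was higher and 3 did not pass, beside 13.6% lower, 8.17% higher and 21.8% in either direction of all genes tested. Log2 differences were -0.34 for Afp (limma adjusted p = 0.00758), -0.54 for Trf (limma adjusted p = 0.0014), -0.92 for Spp2 (limma adjusted p = 0.00155) and -1.53 for Serpina1c (limma adjusted p = 0.00885). In those 4, each KO array lay below each HET array, as in 21.4% of all genes tested. Serpina1c, 1 of the 4, was above the filter only through its 6 WT and HET arrays, and its -1.53 carries no exact fold. This count, too, supports no claim about such genes as a group. Ttr at -0.17 (limma adjusted p = 0.178), Rbp4 at -0.16 (limma adjusted p = 0.131) and Spink1 at 0.15 (limma adjusted p = 0.518) did not pass.

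HET and WT, which share their arrays with the comparisons above, gave no call in the 7 genes (0 of 7, beside 0% of all genes tested). At an unadjusted p under 0.05, limma found 0 of the 7 and 327 of all genes. In 0 of the 7 did HET lie wholly below or wholly above WT, as it did in 5.98% and 4.25% of all genes. Differences ran from -0.04 for Ttr to 0.10 for Serpina1c, and the smallest limma adjusted p was 0.939. For Afp the 95% interval of the difference was -0.14 to 0.15, and for Serpina1c -0.59 to 0.79. With 3 arrays a group, these intervals leave room for a change in HET within their bounds.

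**Figure D3:**
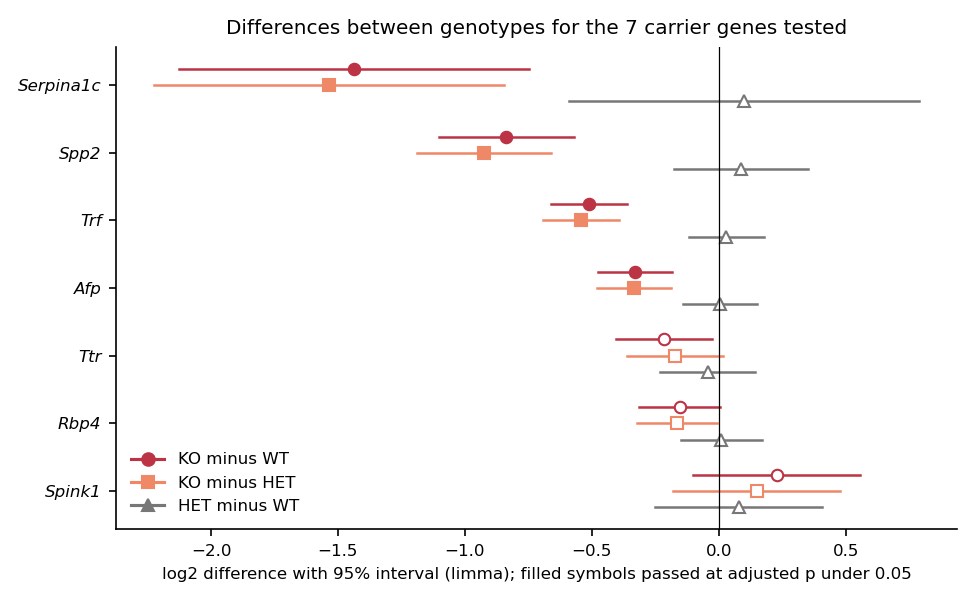
Log2 difference (horizontal axis) with its 95% interval from limma for the 7 tested genes (vertical axis), for KO minus WT (circles), KO minus HET (squares) and HET minus WT (triangles), with filled symbols for adjusted p under 0.05. Serpina1c, Spp2, Trf and Afp are filled in both KO comparisons, and every HET minus WT interval spans 0.

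Array 3 of each genotype gave the lowest value of that genotype in all 7 tested genes. The spread within a genotype was small for the brightest genes, at most 0.14 (SD, n = 3) for Afp, Ttr, Rbp4 and Trf, and was 0.31 for Spink1 in KO and 0.56 for Serpina1c in WT. The mean of the 27 visceral endoderm markers was also lowest on array 3 of each genotype, with 10.98 for WT, 10.94 for HET and 10.72 for KO. The part of array 3 in the spread of these genes was not tested.

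Afp, Ttr, Rbp4 and Trf lay near the top of the signal range. Afp had 110 to 289 probe sets above it on an array and lay 0.73 to 1.30 below the array's highest signal. Rbp4 had 63 to 151 above it and lay 0.56 to 1.00 below the highest. By contrast, Spp2 stayed 2.96 or more below the highest signal on every array. In WT, 20 tested genes had a mean over 13, Afp, Ttr and Rbp4 among them. Of these 20, 15.0% were called between KO and WT, all 3 of them lower, and the widest difference was the -0.33 of Afp.

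Between a WT mean of 12 and 13, 23.7% of 228 genes were called, and between 10 and 11, 30.1%. The median size of the KO minus WT difference was 0.05 over 13, 0.11 from 12 to 13 and 0.15 from 10 to 11. Among the 248 genes with a WT mean over 12, ordered by their fall in KO, Trf had rank 3, Afp rank 24 and Ttr rank 48. Whether the top of the range narrows the differences of Afp, Ttr and Rbp4 was not tested. Signals of different probe sets are not compared as RNA amounts here.

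**Figure D4:**
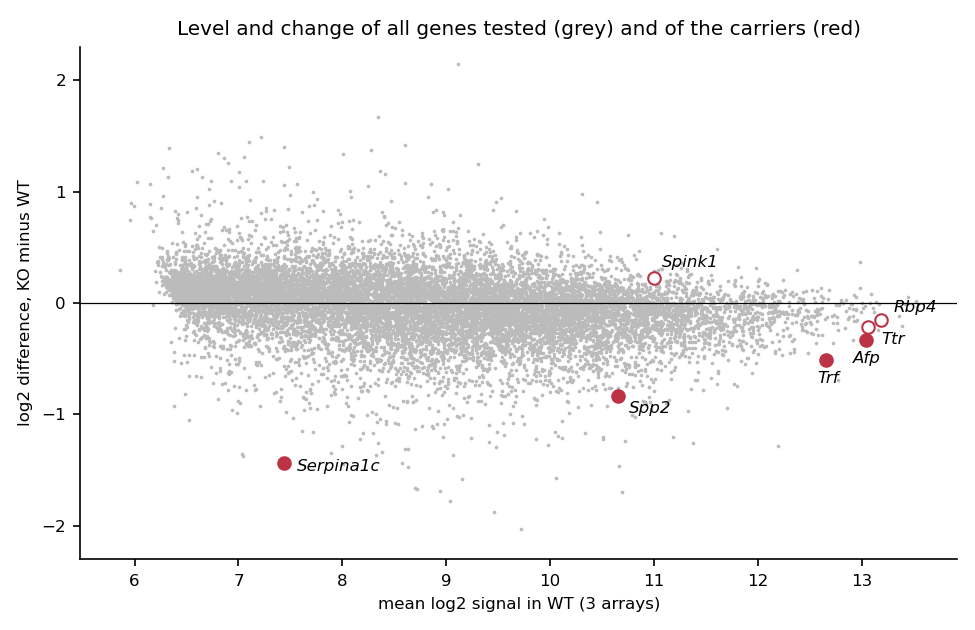
KO minus WT log2 difference (vertical axis) against the mean log2 signal in WT over 3 arrays (horizontal axis) for all 13207 genes tested (grey) and the 7 genes described here (red, filled where the adjusted p was under 0.05). The grey cloud narrows towards the right, where Afp, Ttr and Rbp4 lie, and the widest difference over a WT mean of 13 is the -0.33 of Afp.

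Other plasma proteins made by liver-type cells were lower in KO or did not pass. Of 42 on the list, 37 had a probe set and 17 were tested: 9 were lower, 0 higher and 8 did not pass, with a median of -0.36, against 15.2% lower and a median of -0.00 over all genes tested. Kng1, which encodes the kinin precursor kininogen, read 10.37, 10.83 and 10.32 in WT, 10.84, 10.57 and 10.54 in HET, against 9.56, 9.28 and 9.01 in KO (-1.22 from WT, limma adjusted p = 0.00233). Igfbp1, a carrier of insulin-like growth factors, was at -1.43 (limma adjusted p = 0.00235). Serpind1, which encodes the thrombin inhibitor heparin cofactor II, was at -1.16 (limma adjusted p = 0.00302), and Cpn1, a subunit of the plasma carboxypeptidase N, at -0.75 (limma adjusted p = 0.00258). Itih4, 1 of the 9, was above the filter only through its 6 WT and HET arrays, so the count describes the genes tested and supports no claim about the list. Dim on all 9 arrays were 16 of the 37, among them the haem and haemoglobin carriers Hpx and Hp. Against HET, 9 of 17 were lower and none higher, beside 13.6% and 8.17% of all genes tested. Against WT, 6 passed instead of 9 without WT 1, WT 2 or KO 3 alone, and 12 passed with array weights.

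Receptors and uptake proteins for these ligands were tested for 9 of 13 genes, of which 2 were lower and none higher, with a median of -0.16, beside 15.2% lower of all genes tested. Tfrc, the transferrin receptor, read 10.95, 10.72 and 10.99 in WT, 10.65, 10.69 and 11.18 in HET, against 10.07, 9.90 and 10.47 in KO, a difference from WT of -0.74 (limma adjusted p = 0.017). Its call was lost without WT 1, WT 3 or KO 2 alone (limma adjusted p = 0.0506 to 0.0594), and Tfrc is also abundant in erythroid cells. Asgr2, a subunit of the asialoglycoprotein receptor that clears serum proteins, was at -0.54 (limma adjusted p = 0.0258), lost without WT 1 or WT 2 (limma adjusted p = 0.0673 to 0.0883). Cubn, the apical receptor cubilin, was at -0.16 (limma adjusted p = 0.162) and Tfr2, the other transferrin receptor, at -0.23 (limma adjusted p = 0.0641). Compared with HET, 2 of the 9 were lower and none higher, beside 13.6% and 8.17% of all genes tested.

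Transcription factors that act on liver-type genes did not show a fall that passed. Of 18 listed, 14 were tested: 0 were lower, 1 was higher and 13 did not pass, with a median of 0.07. Over all genes tested, 15.2% were lower and 8.27% higher. Hnf4a, a nuclear receptor of visceral endoderm and liver, was at -0.17 (limma adjusted p = 0.199). Zfhx3, which encodes ATBF1, a repressor of the Afp enhancer, read 8.82, 8.85 and 8.94 in WT, 8.94, 8.74 and 8.83 in HET, against 9.23, 9.11 and 9.23 in KO. It was the 1 that rose, at 0.32 (limma adjusted p = 0.0124), a call lost without WT 1 (limma adjusted p = 0.0547), while 2 regulators passed without WT 2 and 3 without KO 2. Prox1 was at 0.23 (limma adjusted p = 0.171) and Rxra, the partner of the retinoic acid receptors, at 0.20 (limma adjusted p = 0.201). Compared with HET, 0 of the 14 were lower and 1 was higher, beside 13.6% and 8.17% of all genes tested.

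Genes of the secretory pathway, through which the carriers leave the cell, were tested for all 33 of 35 with a probe set. Of these, 12 were lower, 0 higher and 21 did not pass, with a median of -0.16, beside 15.2% lower and 8.27% higher of all genes tested. Sec23a and Sec24d, coat subunits of the vesicles that leave the endoplasmic reticulum, were at -0.47 (limma adjusted p = 0.00256) and -0.43 (limma adjusted p = 0.00385). Sec62, which helps proteins into the endoplasmic reticulum, was at -0.37 (limma adjusted p = 0.00372), and Lman1, a cargo receptor between endoplasmic reticulum and Golgi, at -0.33 (limma adjusted p = 0.0043). Against HET, 10 were lower and none higher, beside 13.6% and 8.17% of all genes tested. The count against WT depended on the arrays, the scaling and the prior: 3 passed without WT 1 and WT 3 together, 18 with each array centred on its median, and 21 with a trended robust prior or with array weights.

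**Figure D5:**
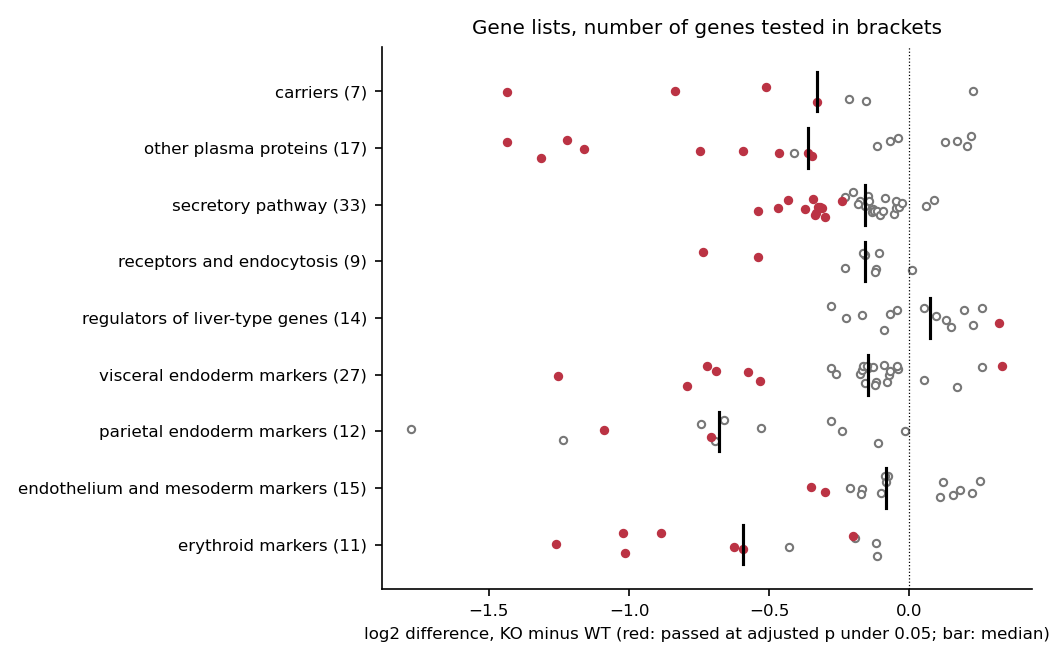
KO minus WT log2 difference (horizontal axis) of each tested gene in 9 lists (vertical axis, number tested in brackets), red where the limma adjusted p was under 0.05, with a bar at the median of the list. Medians lie at -0.33 for the carriers, -0.36 for other plasma proteins, -0.16 for the secretory pathway and 0.07 for the regulators.

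Markers of the cell types that a yolk sac sample can hold moved as follows beside the carriers. Of the 27 visceral endoderm markers, 6 were lower, 1 was higher and 20 did not pass, beside 15.2% lower and 8.27% higher of all genes tested, with a median of -0.15 and a list mean of 10.98 to 11.04 in WT, 10.94 to 11.07 in HET and 10.72 to 10.82 in KO. Maob, which encodes a monoamine oxidase, was at -1.25 (limma adjusted p = 0.000359), and the iron exporter gene Slc40a1 at -0.79 (limma adjusted p = 0.00127). The zinc transporter gene Slc39a4 was at -0.72 (limma adjusted p = 0.00171), and the apolipoprotein gene Apoa4 at -0.69 (limma adjusted p = 0.00132). Ihh, a hedgehog ligand of this layer, rose by 0.33 (limma adjusted p = 0.0385), but its difference from HET of 0.25 did not pass (limma adjusted p = 0.103). In the comparison with HET, 9 of these markers were lower and 0 higher, beside 13.6% and 8.17% of all genes tested.

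The visceral endoderm markers did not move by 1 amount against WT: Amn at -0.12, Lrp2 at -0.16, Apob at -0.15, Dab2 at -0.12 and Apoa1 at -0.08 did not pass. In these bulk samples, fewer endoderm cells and less RNA of a gene per cell cannot be told apart. Beside the same 15.2% lower of all genes tested, erythroid markers were lower for 7 of 11 genes (median -0.59), with list means of 10.66 to 10.90 in WT, 10.57 to 10.92 in HET and 10.03 to 10.51 in KO. Endothelial and mesodermal markers were lower for 2 of 15 (median -0.08), with list means of 10.23 to 10.35, 10.20 to 10.34 and 10.19 to 10.27. Without WT 1, WT 3, HET 1, HET 2, KO 2 or KO 3 alone, 4 erythroid markers passed instead of 7. Of the endothelial and mesodermal markers, 0 passed without WT 2 or KO 2 and 1 without WT 1 or WT 3. Compared with HET, 4 of 11 erythroid and 2 of 15 endothelial and mesodermal markers were lower, beside 13.6% of all genes tested. The part of either cell type in the carrier results was not tested.

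Markers of parietal endoderm, trophoblast, decidua and adult hepatocytes gave these values. Of all genes tested, 15.2% were lower and 8.27% higher in KO against WT, and 13.6% and 8.17% against HET. The 12 parietal endoderm markers had a median of -0.68 between KO and WT, with 2 lower (0 without WT 1 or KO 2 and 10 without WT 2), and of 0.03 between KO and HET, with 0 called. Without WT 1 and WT 3 together, Trf, Spp2 and Serpina1c passed against WT and Afp did not. Trophoblast markers averaged 5.60 to 5.80 in WT, 5.02 to 5.87 in HET and 5.74 to 6.12 in KO, with 10 of 18 dim on all arrays. Of the 7 tested, 0 were called (1 without KO 1). These 7 averaged 7.83 to 8.47 in WT, 6.48 to 8.53 in HET and 8.02 to 8.56 in KO. Their SD over the 3 HET arrays was 1.03. Decidua markers averaged 7.13 to 7.65, 6.83 to 7.25 and 7.46 to 7.85. Of the 8 tested, 1, Igfbp3, was higher (0.94, with 2 passing without WT 3 or KO 1). Against HET, 2 of these 8 were higher and 0 lower (median 0.33), and 0 of the 7 trophoblast markers were called (median 0.92). The part of these tissues in the carrier results was not tested. Of 17 markers of the adult hepatocyte with a probe set, 14 were dim on all arrays, with list means of 5.26 to 5.40, 5.42 to 5.54 and 5.28 to 5.38, and 1 of the 2 tested was lower: Tdo2, at -0.79 (limma adjusted p = 0.0206), a call lost without WT 1, WT 2, KO 2 or KO 3 alone.

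The genes with patterns most like those of the carriers that fell were found by the root mean square difference of gene-centred log2 values over the 9 arrays, which includes the contrast between KO and the rest. The carriers were passed over, as were symbols beginning Gm with a number, LOC, Olfr, Vmn, Mir or Snor, or ending Rik. For Afp the nearest were Fbxo3 at 0.028, Rnf14 at 0.028 and Ndufv3 at 0.030, where the median over the remaining tested genes was 0.194. Trf lay nearest to Ifi30 at 0.035, Slc2a2, the glucose transporter of liver and endoderm, at 0.035, and Nsf, a vesicle fusion ATPase, at 0.036 (median 0.270). For Spp2 the nearest were Habp2 at 0.049, which encodes a plasma serine protease, Hsd17b2 at 0.052 and Pla1a at 0.061 (median 0.441). Serpina1c lay nearest to Itih2 at 0.161, a plasma inter-alpha-trypsin inhibitor heavy chain, Keg1 at 0.178 and Adh1 at 0.206 (median 0.790). These are descriptions of 9 arrays.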

How the data were processed

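Log2 signals per probe set were deposited by the authors, who made them with RMA (background correction, normalization between arrays, summary), per the submitters' processing notes; the program was Affymetrix Expression Console 1.2.1.20. The array annotation's genome build was not stated. Of 28350 probe sets, the 21780 naming 1 gene symbol were used, with the highest mean probe set per gene. Genes above the 40th percentile of their array on at least 3 of 9 arrays were tested with limma 3.58.1 in R 4.3.3 on all 9 arrays, with Benjamini-Hochberg adjustment over the 13207 genes kept, and 6726 dim genes were left out. The genes named are all 10 carriers, Rnh1, up to 4 genes with the smallest p per list and the 3 nearest patterns of each carrier that passed. Afm, genes used as examples within a list and the 248 brightest genes were chosen with values in view. The members and lists were chosen with earlier results of these data known. Alternatives covered the filter, the probe set rule, scaling, prior, array weights, the genotypes fitted, a Y-linked gene as covariate, the replicate number and left-out arrays. The fit was tested on simulated data. Promoter windows are RefSeq's, on GRCm38.p6.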

Additional observations from a re-analysis of the deposited data

How the results depend on the processing

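Over 22 alternatives, the 462 recomputed values of the tested carriers held no called value of opposite sign, while 26 values that were not called changed sign. For KO against WT, leaving out 1 array gave 4 to 5 carriers past the test, for KO against HET 4 to 4 and for HET against WT 0 to 0. Of the plasma protein, receptor, regulator and secretory genes together, 24 passed for KO against WT, with 16 to 27 when 1 array was left out. This count was 39 with array weights and 10 without WT 1 and WT 3 together, the latter chosen after the data were examined and resting on 1 WT array. Over all genes, 3101 calls became 5753 with array weights, 1672 without WT 1, 1773 without WT 2 and 1196 without WT 1 and WT 3. For KO against HET, 2875 became 1739 with the Y-linked gene Eif2s3y as covariate, 1514 without HET 1 and 1567 without HET 2. The replicate block gave 4 carriers for KO against WT, 4 for KO against HET, 0 for HET against WT and 25 list genes. The labels do not say that the numbers pair samples, and 5 of 9 same-numbered pairs had a correlation over 0.1 (-0.257 to 0.425). Array weights called 6 genes for HET against WT. Where the cause of a change is not the smaller number of arrays, it was not tested. Afp, Ttr and Rbp4 lie near the array maximum, with any effect of that not tested, and signal under the filter limits Alb, Ahsg and Serpina1c in KO.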
